A study of Mus musculus with 11 samples.

Results

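The genes described here are the suppressors of cytokine signalling (Socs1 to Socs7 and Cish) and the protein inhibitors of activated STAT that were listed with them (Pias1 and Pias3). They were matched by symbol to the gene identifiers of the count files, which gave 10 genes of 55359. The samples are retinal vascular endothelial cells, taken by a CD31+/CD45- sort from C57BL/6 mice at P17 of the oxygen-induced retinopathy (OIR) model, in which pups are kept in high oxygen and new vessels grow into the vitreous after their return to room air. All mice went through OIR. At P12, 5 of them were given 0.5 µL of oncostatin M (OSM) at 100 ng/µL into the vitreous and 6 were given 0.5 µL of PBS. Each sample is 1 mouse with both retinas pooled, labelled with 1 treatment. The mice came from 3 litters, each 1 OIR run. Litter 1 held 2 OSM mice (1 and 2) and 2 PBS mice (3 and 4), litter 2 held 2 OSM mice (5 and 6) and 2 PBS mice (7 and 8), and litter 3 held 1 OSM mouse (9) and 2 PBS mice (10 and 11). There was no group without OIR and no sample before P17.

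OSM belongs to the IL-6 family of cytokines. It binds the OSM receptor (Osmr) together with gp130 (Il6st), the JAK kinases on these chains are activated, and the STAT factors they phosphorylate enter the nucleus, where Socs genes are among their targets. SOCS proteins close this loop: their SH2 domain finds phosphorylated receptors or kinases, their SOCS box recruits a ubiquitin ligase built on elongins B and C and Cul5, and SOCS1 and SOCS3 also block the kinase itself. PIAS proteins are SUMO ligases present without induction that bind STATs and lower their action on target genes.

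The total counts were 26697990 to 56033479 reads per mouse. Summed per mouse, the 12 endothelial markers ranged from 15337 to 21016 CPM (reads scaled to the effective size of the library). They were led by Cldn5, a tight junction gene, with a mean of 4697 CPM, and the lowest was Erg, at 29.5 to 50.3 CPM. The leukocyte gene Ptprc, which encodes CD45, had a mean of 0.101 CPM, and 10 of 12 leukocyte and microglia markers had a mean under 1 CPM. The highest of the 12 was Laptm5, with a mean of 46.5 CPM. Summed per mouse, the 12 ranged from 33.3 to 85.7 CPM. RNA of other cells was present: summed over 14 markers, rod photoreceptor genes ranged from 236 to 6204 CPM, with the highest value in mouse 5. In sorted pools, fewer cells of a type and less RNA per cell cannot be told apart.

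Sequences around the transcription starts are given first, because STAT binding near these starts is the known route to Socs transcription. RefSeq windows from 250 bases before to 50 bases after a start were held for 6 of the 10 genes (Socs1, Socs3, Socs4, Cish, Pias1 and Pias3). In each window, both strands were searched for TTCNNNGAA, the letters that STAT dimers prefer, for the longer form with 4 bases between TTC and GAA, and for a pair of GAAA parted by 2 bases, the core of interferon response elements. TTCNNNGAA was found in 2 of these 6 genes and in 8.3% of all 32851 windows of the table. The GAAA pair was found in 1 of the 6 and in 3.44% of windows, and the longer form in 0 of the 6 and in 6.95%. The stretches that hold a match are written below with the matched letters in capitals, on the strand of the gene.
Cish: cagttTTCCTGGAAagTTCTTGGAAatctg
Socs3: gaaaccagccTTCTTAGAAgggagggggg
Socs1: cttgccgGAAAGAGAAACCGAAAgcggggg

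The Cish stretch holds 2 copies of TTCNNNGAA, at bases 1 to 9 and 12 to 20 of the RefSeq transcript, and only 0.457% of all windows hold 2 or more. Its position on GRCm39 is chr9:107173853-107173882, plus strand. The Socs3 copy lies 154 to 146 bases before the RefSeq start, within chr11:117860328-117860356 on the minus strand. In Socs1 the 2 matches of the GAAA pair overlap each other and reach from 83 to 68 bases before the start, within chr16:10603461-10603490 on the minus strand, and 0.225% of windows hold 2 or more such matches. The RefSeq table is on GRCm38.p6, and each stretch was found again at a single place near its gene on GRCm39. In GENCODE vM39 all 3 stretches overlap an untranslated part of an exon of the same gene, and each gene begins upstream of its stretch. They also overlap a transcript, though no exon, of an opposite-strand gene (Gm67592 at Cish, Gm57366 at Socs3 and Gm46563 at Socs1). A match is a string of letters and not a measured binding site.

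Reads of all 10 genes were found in the sorted pools, and all passed the filter on low counts. Levels between genes are compared as RPKM, which is CPM per 1000 bases of the gene's exon union. The exon lengths are from GENCODE vM39, whereas the paper assigned reads with an earlier GENCODE annotation. Of the counted genes, 610 are not in vM39, and exon differences between the annotations would shift these levels, which was not tested. Socs3 had the highest mean, 8.56 ± 5.05 RPKM (SD, n = 11), which was above 76.9% of the 16962 tested genes with a known length. Pias1 (6.44 ± 1.84) and Pias3 (6.41 ± 2.09) followed, then Socs5 (5.17 ± 2.05), Socs1 (2.61 ± 0.955), Socs6 (2.10 ± 0.740) and Socs2 (1.83 ± 0.371). Socs4 (0.744 ± 0.467), Cish (0.662 ± 0.238) and Socs7 (0.381 ± 0.285) were at the low end, with Socs7 above 25.8% of tested genes. The median tested gene had 1.97 RPKM, so the family spans both sides of it.

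**Figure D1:**
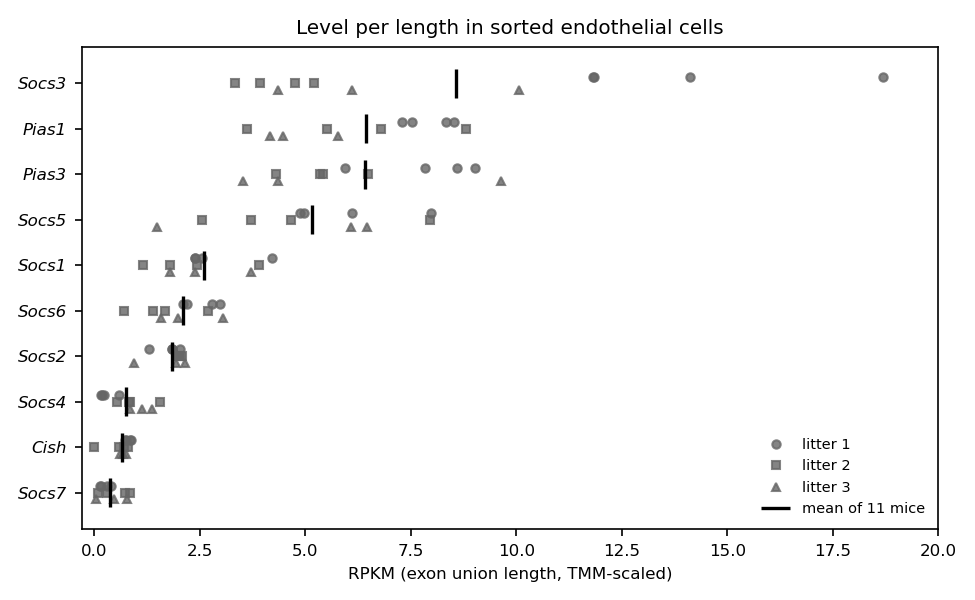
Level of each gene per length (RPKM, linear axis) in the 11 mice, ordered by mean, with circles, squares and triangles for litters 1, 2 and 3 and a bar at the mean. Socs3 has the highest mean and the widest range, 3.33 to 18.7 RPKM, and its 4 highest mice are the 4 of litter 1.

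Of the 9 neighbour pairs in that order, 3 differed by more than the SD of their ratio within mice. Socs5 was above Socs1 by 0.94 ± 0.64 on the log2 scale (SD over mice, higher in 10 of 11 mice). Socs2 was above Socs4 by 1.61 ± 1.20 (higher in 10 of 11 mice). Cish was above Socs7 by 1.55 ± 1.39 (higher in 8 of the 10 mice with reads for both). The other pairs did not differ beyond their spread. Socs3 and Pias1, for example, differed by 0.24 ± 0.78, and Socs3 was the higher in 8 of 11 mice. The order also depends on the length chosen. With the longest transcript in place of the exon union, Socs2 goes from 1.83 to 4.79 RPKM and passes Socs1 and Socs6, because its exon union of 15258 bases is long beside its longest transcript of 5841 bases, and 5 of the 9 neighbour orders are kept.

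Signalling components upstream of these inhibitors were present in the same sorted pools, which also held RNA of other cells. On the RPKM scale, Jak1 had 26.7 ± 5.50, Stat3 22.7 ± 2.71, Il6st 9.35 ± 2.18, Jak2 9.25 ± 2.93, Stat5b 8.65 ± 2.39, Tyk2 4.51 ± 2.07, Osmr 3.33 ± 1.52, Lifr 3.00 ± 1.17 and Stat5a 1.07 ± 0.618 (SD, n = 11). The ubiquitin ligase partners of the SOCS box were present as well, with 56.7 ± 5.94 RPKM for Elob (elongin B), 9.16 ± 1.30 for Eloc (elongin C) and 5.41 ± 1.50 for Cul5. Of the other PIAS genes, Pias4 had a higher mean than Pias1 and Pias3, 9.36 ± 2.18 RPKM, and Pias2 a lower one, 3.53 ± 0.877.

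The comparison of OSM with PBS asks which transcripts differ in endothelial cells 5 days after the injection. With litter as a term, 0 of the 10 genes passed an adjusted p of 0.05 (edgeR's quasi-likelihood test, Benjamini-Hochberg adjustment over all 17050 genes tested), as did 0% of all genes tested. At an unadjusted p under 0.05 there were 0 of the 10, against 4.96% of all genes tested. DESeq2, run on the 28940 genes with a read, called 168 of them and 0 of these 10. Its unadjusted p for Socs3 was 0.0250, where 1756 of the 28940 were under 0.05. The CPM of OSM and PBS mice overlapped for every one of the 10, while they were apart in 0.405% of all genes tested. The difference had the same sign in all 3 litters for 3 of the 10 (Socs3 and Pias3 lower with OSM, Socs7 higher), and for 24.1% of all genes tested.

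**Figure D2:**
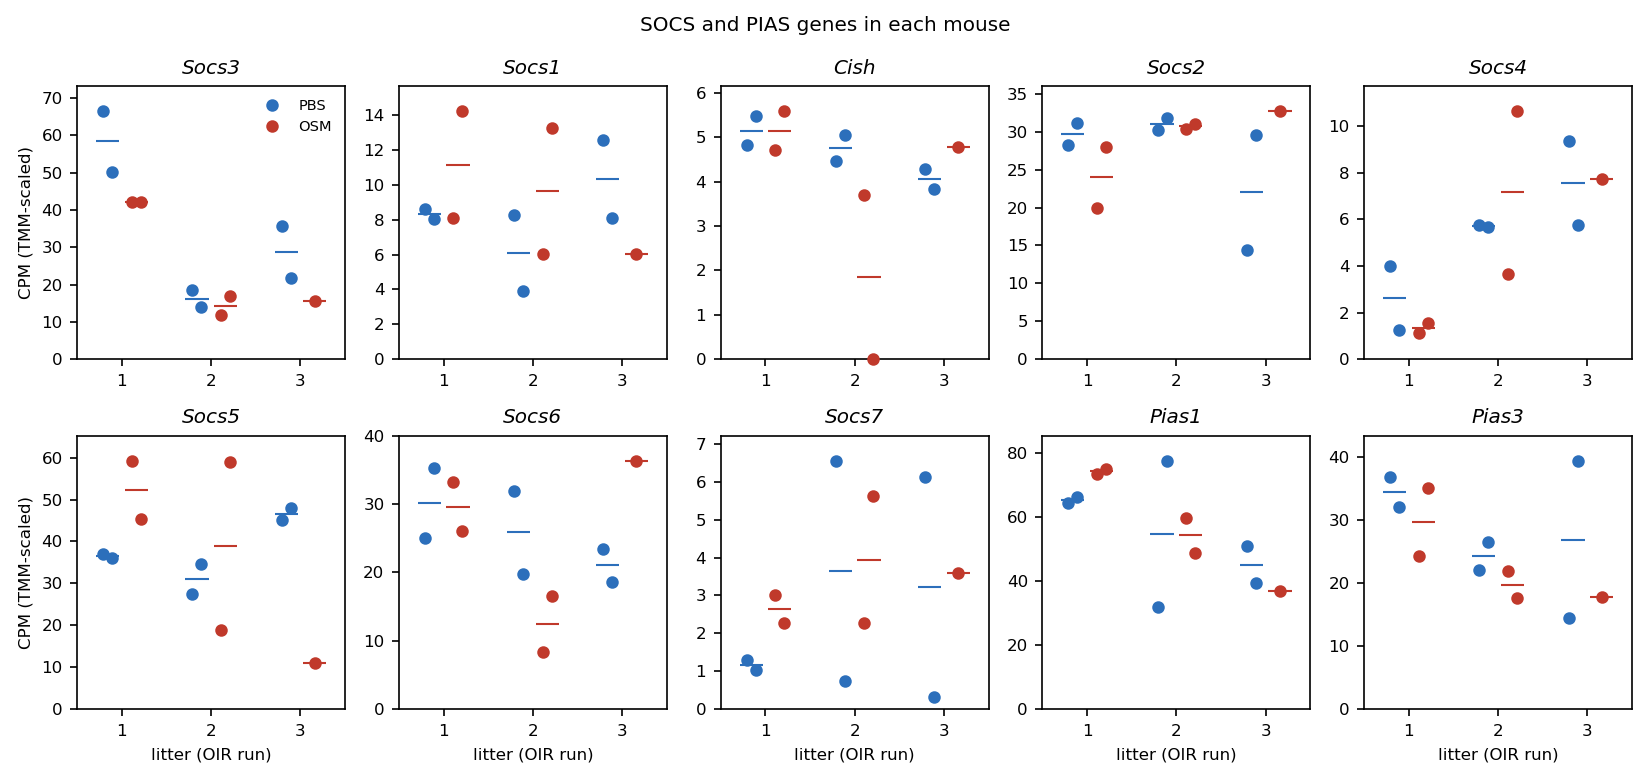
TMM-scaled CPM of each gene in each mouse, by litter, with PBS mice in blue, OSM mice in red and a bar at the mean of each treatment in a litter. Red and blue points overlap over the 11 mice in every panel, Socs3 is highest in litter 1, and mouse 6 of litter 2 has no Cish reads.

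Socs3, the feedback inhibitor that binds gp130, lies on chromosome 11 (117856905 to 117860898, minus strand, GRCm39). The OSM mice had 42.0 CPM (mouse 1), 42.1 (mouse 2), 11.9 (mouse 5), 16.9 (mouse 6) and 15.5 (mouse 9). The PBS mice had 13.9 at the lowest, a median of 28.7 and 66.5 at the highest. Within litter 1, both OSM mice were below both PBS mice, within litter 2 they were mixed, and within litter 3 the OSM mouse was below both PBS mice. The log2 fold change of OSM against PBS was -0.46 ± 0.22 (SE, 95% interval -0.94 to 0.02, edgeR adjusted p = 0.955). Within litters 1, 2 and 3 the differences of mean log2 CPM were -0.46, -0.18 and -0.84. As a fold, the interval ran from 0.521 to 1.01. The estimate was below 0 in each of 21 alternative analyses, from -0.64 to -0.33, and its adjusted p was 0.492 or higher in all of them.

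Socs1, which inhibits JAK kinases and is best known as a brake on interferon signalling, lies on chromosome 16 (10600104 to 10603875, minus strand). The OSM mice had 8.07, 14.2, 6.05, 13.2 and 6.06 CPM (mice 1, 2, 5, 6 and 9), and the PBS mice 3.90, 8.17 and 12.5 (lowest, median, highest). High and low values occurred in both groups, and the log2 fold change was 0.25 ± 0.44 (SE, 95% interval -0.73 to 1.22, edgeR adjusted p = 1). The interferon responsive genes that Socs1 restrains had a median log2 fold change of 0.72, with 9 of 10 higher with OSM. None of the 10 passed the adjusted threshold, and before adjustment 8 were under 0.05. The median over all genes tested was -0.01.

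Cish, the founding member of the family and a target of STAT5, lies on chromosome 9 (107173225 to 107179983, plus strand). It was at 4.71, 5.60, 3.71, 0 and 4.79 CPM in OSM mice 1, 2, 5, 6 and 9, and at 3.83, 4.65 and 5.48 CPM (lowest, median, highest) in PBS mice. All mice but mouse 6 were close together, at 4.67 ± 0.625 CPM (SD, n = 10). Mouse 6 had no read, where the mean of the other mice corresponds to 134 reads at its depth. By counting error alone, a count of 0 allows 3 counts, or 0.105 CPM, which is 44.6-fold below that mean. The cDNA was PCR-amplified and reads carry no molecular identifiers, so this floor does not bound the transcript level in mouse 6. The CV over the 10 mice was 13.4%. The median CV in the same 10 mice was 72.5% for the 1048 tested genes with a mean of 3 to 6 CPM, and 0.0954% of them had a lower one. Because mouse 6 was set aside for its Cish value, the CV over all 11 mice belongs beside it: 36.0%, against a median of 69.9% in 2215 genes of like level (within a factor of 2), 7.72% of which had a lower one. Genes without a read in some mouse were frequent at this level, with 418 of the 1048 (39.9%) at 0 in at least 1 mouse, 79 of them in mouse 6, and 21 to 133 per mouse. The log2 fold change of Cish, -0.43 ± 0.99 (SE, 95% interval -2.60 to 1.75, edgeR adjusted p = 1), rests on mouse 6. It was -0.03 without that mouse, which is also the highest leave-one-out value.

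Socs2, known for restraining growth hormone signalling, lies on chromosome 10 (95219523 to 95253929, minus strand). OSM mice 1, 2, 5, 6 and 9 had 19.9, 28.0, 30.4, 31.0 and 32.7 CPM, and the PBS mice 14.4, 29.9 and 31.9 (lowest, median, highest). Except for mouse 10 (PBS) and mouse 1 (OSM), the mice lay within 28.0 to 32.7 CPM. The log2 fold change was 0.03 ± 0.23 (SE, 95% interval -0.48 to 0.54, edgeR adjusted p = 1). The CV of Socs2 over the 11 mice, 20.2%, was lower than that of most genes of like level, of which 12.1% had a lower one.

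Socs4 to Socs7 are the less studied members, with long N-terminal regions, and Socs4 and Socs5 are linked to the EGF receptor. Socs5 (chromosome 17, 87414674 to 87445267, plus strand) had 59.3, 45.3, 19.0, 59.0 and 10.9 CPM in OSM mice 1, 2, 5, 6 and 9, against 27.5, 36.5 and 48.0 CPM (lowest, median, highest) in PBS mice. The OSM mice thus held both the 2 highest and the 2 lowest of the 11 values. The log2 fold change was -0.07 ± 0.43 (SE, edgeR adjusted p = 1), with differences of 0.50, 0.12 and -2.08 in litters 1, 2 and 3. The last is from 1 OSM mouse. In the edgeR test of litter by treatment the adjusted p of Socs5 was 0.656. It was the only one of the 10 with an unadjusted value under 0.05 in this test, where 6.42% of all genes tested were. Socs6 (chromosome 18, 88683348 to 88945635, minus strand) had 33.3, 26.0, 8.33, 16.6 and 36.4 CPM in OSM mice 1, 2, 5, 6 and 9, and 18.7, 24.2 and 35.3 CPM (lowest, median, highest) in PBS mice. The OSM mice of litter 2 were the lowest and the OSM mouse of litter 3 was the highest of all. The litters thus went in different directions, with differences of -0.01, -1.09 and 0.80 (edgeR, litter by treatment, adjusted p = 0.773). Over all mice its log2 fold change was -0.18 ± 0.33 (SE, edgeR adjusted p = 1).

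Socs4 (chromosome 14, 47514368 to 47533559, plus strand) and Socs7 (chromosome 11, 97253032 to 97289368, plus strand) had few reads, 39 to 432 and 10 to 214 per mouse. Socs7 was at 3.02, 2.26, 2.28, 5.62 and 3.59 CPM in OSM mice 1, 2, 5, 6 and 9. In PBS mice it was at 0.314, 1.16 and 6.56 CPM (lowest, median, highest). The PBS mice therefore lay on both sides of the OSM mice, 4 below all of them and 2 above. The log2 fold change of Socs7 was 0.52 ± 0.92 (SE, 95% interval -1.50 to 2.55). It was 1.22 without mouse 7, 1.15 without mouse 10 and 0.30 without mouse 8. For Socs4 the log2 fold change was -0.23 ± 0.58 (SE, 95% interval -1.51 to 1.05, edgeR adjusted p = 1 for both genes).

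Pias1 (chromosome 9, 62785648 to 62895206, minus strand) was at 73.5, 75.0, 59.8, 48.6 and 36.8 CPM in OSM mice 1, 2, 5, 6 and 9, and at 31.9, 57.5 and 77.5 CPM (lowest, median, highest) in PBS mice. The log2 fold change was -0.01 ± 0.21 (SE, 95% interval -0.48 to 0.47, edgeR adjusted p = 1). Pias3 (chromosome 3, 96603700 to 96613386, plus strand), which binds STAT3, was at 24.3, 35.2, 21.9, 17.6 and 17.8 CPM in the OSM mice, and at 14.4, 29.3 and 39.5 CPM in PBS mice. Its log2 fold change was -0.34 ± 0.27 (SE, 95% interval -0.93 to 0.24, edgeR adjusted p = 1), with -0.23, -0.30 and -0.42 in litters 1, 2 and 3. Without mouse 11 it was -0.15. Of the Pias3 exons, 13.1% of bases overlap Nudt17 on the opposite strand, and 7.47%, 7.46% and 1.57% of Socs2, Cish and Socs1 exon bases overlap opposite-strand genes. The study states standard settings, under which featureCounts ignores strand and leaves a read that overlaps more than 1 gene unassigned. Reads from these places would thus be missing from the counts, while the bases remain in the exon lengths.

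**Figure D3:**
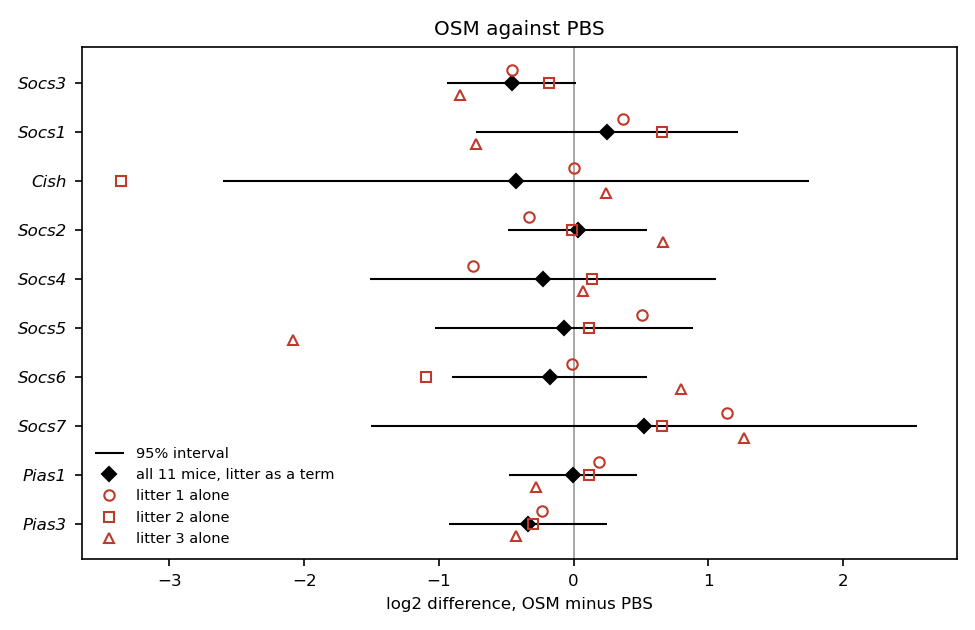
Log2 difference of OSM minus PBS for each gene: black diamonds with 95% intervals from the model with litter as a term, and open red circles, squares and triangles for the difference of mean log2 CPM within litters 1, 2 and 3. All 10 intervals include 0, Socs3 and Pias3 have 3 red symbols below 0, and the intervals of Cish and Socs7 are the widest.

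The other genes of the pathway were read from lists. None passed the adjusted threshold in either direction among 11 JAK kinases and STAT factors, 9 ubiquitin ligase partners, 8 SUMO pathway genes, 2 other PIAS genes, 6 other JAK-STAT inhibitors, 12 further cytokine receptors, 7 tested IL-6 family genes, 11 tested STAT3 responsive genes and 5 STAT5 responsive genes. Their median log2 fold changes were 0.08, 0.03, -0.04, -0.05, -0.01, 0.06, 0.11, 0.00 and -0.04 in that order. Stat3 itself was at 0.02 ± 0.09 (SE). The 12 mural cell markers were all lower with OSM, with a median of -0.74 and summed levels of 618 to 1167 CPM in OSM mice and 430 to 2286 CPM in PBS mice, and 0 of the 12 passed the threshold. Erythroid and platelet markers were higher with OSM in 6 of 7 tested, with summed levels of 368 to 1142 CPM in OSM mice and 127 to 614 CPM in PBS mice, and 0 passed. Other marker lists differed as well, with 0 called. Muller glia and astrocyte markers were lower with OSM in 7 of 9 tested (median -0.91). Leukocyte and microglia markers, most of them under 1 CPM, were lower in 5 of 6 tested (median -1.71). Rod markers were higher in 10 of 14 (median 0.61), and the 12 endothelial markers had a median of 0.02. The part of these cells in the values above was not tested.

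Socs3 also varied between litters. Its CV over the 11 mice, 59.0%, was above that of 96.5% of the 4407 genes of like level. In litter 1, mice 1 to 4 had 42.0, 42.1, 66.5 and 50.3 CPM. In litter 2, mice 5 to 8 had 11.9, 16.9, 18.5 and 13.9 CPM. In litter 3, mice 9 to 11 had 15.5, 35.8 and 21.7 CPM. Every mouse of litter 1 was above every mouse of the other litters, which held for Socs3 alone of the 10 genes, and for 1.52% of all genes tested (2.97% when genes with litter 1 below all other mice are counted too). The test of both litter terms gave Socs3 an adjusted p of 0.0743 (edgeR), so that 0 of the 10 genes were called, as were 3 of 17050 (0.0176%). Unadjusted, 2 of the 10 (Socs3 and Socs4) had a p under 0.05, against 10.3% of genes. By DESeq2, Socs3 and Socs4 were called, with 988 of the 28940 genes with a read.

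Each pair of litters was then set against each other, a step added after the litter test was seen. Socs3 was 3.23-fold lower in litter 2 than in litter 1, a log2 difference of -1.69 ± 0.25 (SE, 95% interval -2.25 to -1.13, edgeR adjusted p = 0.0469, p-values not adjusted over the 3 pairs). It was 1 of 28 genes called lower there (0.164% of 17050). Between litters 3 and 1 the difference was -1.15 ± 0.28 (SE, edgeR adjusted p = 0.188). The size of the first difference was stable, from -1.86 to -1.57 when each mouse was left out. The call was not: the adjusted p rose above 0.05 without mice 1, 2, 3, 4, 5, 6, 7 or 11, up to 0.185, and in PBS mice alone the difference was -1.85 with an adjusted p of 0.587. Litter, OIR run and anything else that went with a run cannot be told apart.

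**Figure D4:**
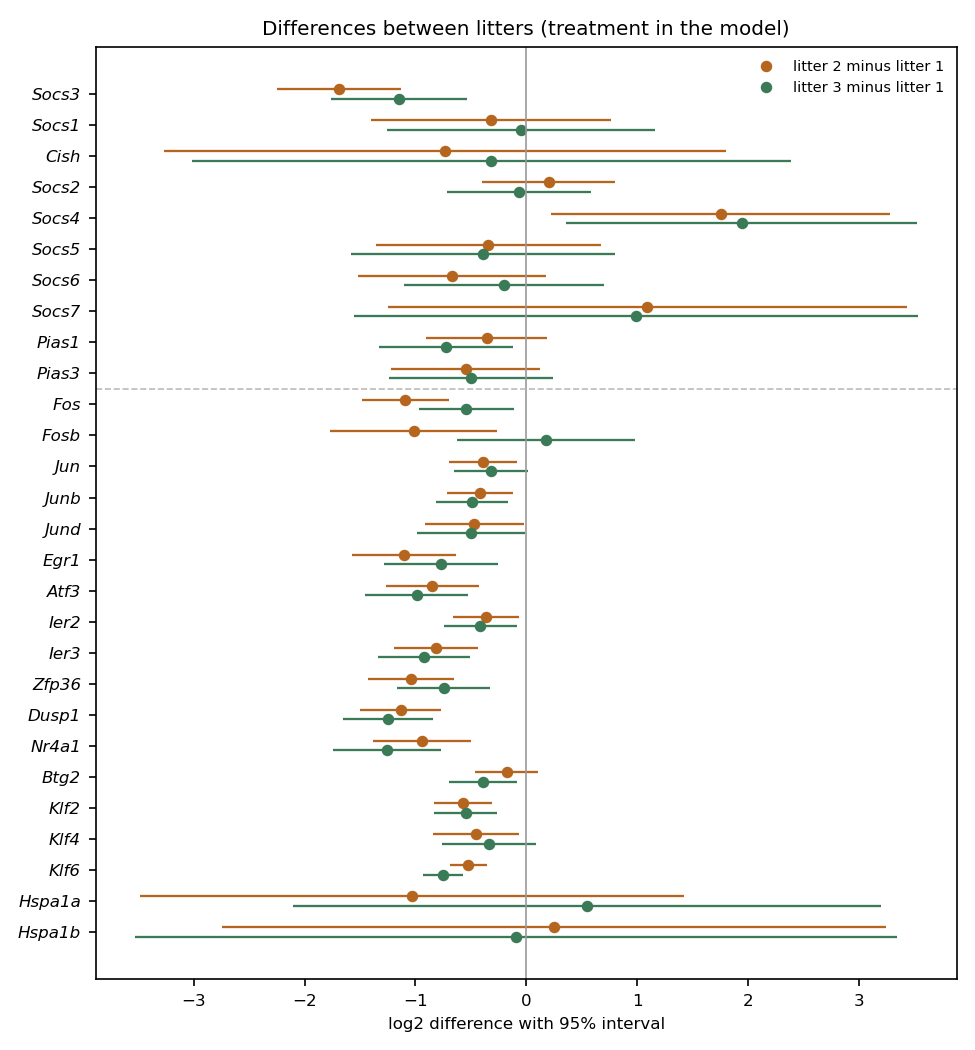
Log2 difference with its 95% interval for litter 2 minus litter 1 (brown) and litter 3 minus litter 1 (green), for the 10 genes above the dashed line and for all 18 listed immediate early genes below it. Socs3 is on the left of 0 in both contrasts, Socs4 is on the right with wide intervals, and 17 of the 18 immediate early genes are on the left in the brown contrast.

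Socs4 went the other way, without passing the threshold. Litter 1 had 1.12, 1.54, 3.99 and 1.25 CPM (mice 1 to 4), litter 2 had 3.67, 10.6, 5.76 and 5.65 (mice 5 to 8), and litter 3 had 7.72, 9.35 and 5.77 (mice 9 to 11). Mouse 3 of litter 1 and mouse 5 of litter 2 overlapped, and the others were apart. Socs4 was 1.75 ± 0.69 higher on the log2 scale in litter 2 than in litter 1 (SE, edgeR adjusted p = 0.385) and 1.95 ± 0.72 higher in litter 3 (SE, edgeR adjusted p = 0.426). Pias1 differed by -0.72 ± 0.28 between litters 3 and 1 (SE, edgeR adjusted p = 0.442). Osmr, the receptor chain, was -1.23 ± 0.30 in litter 2 against litter 1 (SE, edgeR adjusted p = 0.123), and the STAT3 responsive genes had a median of -0.32 there with 0 of 11 called.

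Immediate early genes, which many stimuli induce within minutes, tissue dissociation included, moved with Socs3 across the litters. Their summed level was 3645 to 4343 CPM in litter 1, 2344 to 2997 in litter 2 and 2530 to 2684 in litter 3, so litter 1 stood apart. In litter 2 against litter 1, 17 of the 18 were lower, with a median log2 difference of -0.69 against 0.00 for all genes tested, and 4 were called (0.246% of all genes were). These were Dusp1 (-1.13 ± 0.17, adjusted p = 0.0469), a phosphatase of MAP kinases, Fos (-1.09 ± 0.18, adjusted p = 0.0469) and Klf6 (-0.52 ± 0.08, adjusted p = 0.0469), transcription factors, and Zfp36 (-1.04 ± 0.17, adjusted p = 0.0473), which destabilises cytokine mRNAs (edgeR, ± SE). Markers of other cells differed in the same contrast. The 14 rod markers were all higher in litter 2, with a median of 2.03, summed levels of 738 to 6204 CPM against 469 to 607 in litter 1, and 0 called. The 7 tested erythroid and platelet markers were all higher, with a median of 1.21, summed levels of 555 to 1142 CPM against 146 to 425, and the haemoglobin gene Hbb-bt called (2.52 ± 0.40 SE, edgeR adjusted p = 0.0469). Of the 12 endothelial markers 8 were lower, with a median of -0.24, and 2 were called lower, Pecam1, which encodes the sorted antigen CD31 (-0.57 ± 0.09 SE, edgeR adjusted p = 0.0469), and Vwf, the gene of von Willebrand factor (-0.67 ± 0.11 SE, edgeR adjusted p = 0.0473). The part of the immediate early genes and of these other cells in the Socs3 difference was not tested. Because litter 1 forms a cluster of its own, no correlation of Socs3 with the immediate early genes over all mice is given. After the mean of each litter was subtracted, Pearson's r of Socs3 with the mean of these genes was 0.14 (n = 11 mice of 3 litters, log2 CPM), and points of 1 litter share their run.

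**Figure D5:**
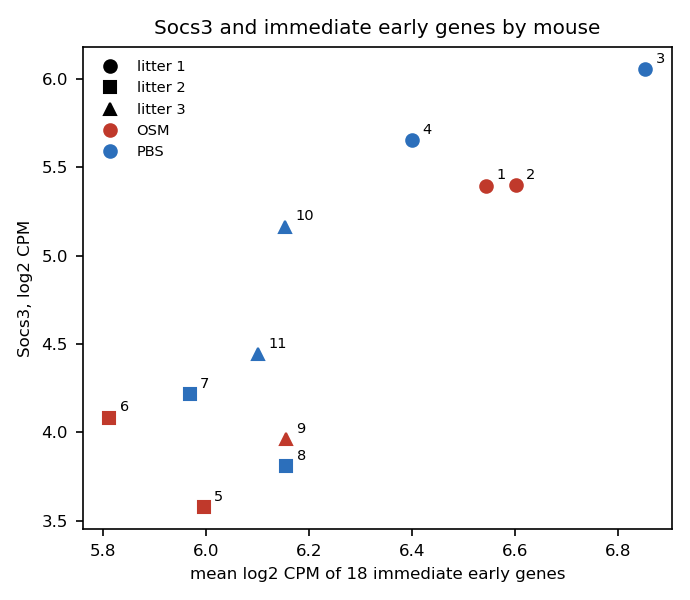
Socs3 (log2 CPM) against the mean log2 CPM of 18 immediate early genes in the 11 mice, numbered, with shapes for litters and red for OSM, blue for PBS. The 4 mice of litter 1 form a group at the upper right, and within a litter no common slope is seen.

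The genes whose log2 CPM followed Socs3 most closely over the 11 mice, of 8767 with a mean of at least 10 CPM, were Tcp11l2 (Pearson's r = 0.95), Ccn2 (0.93), Smad7 (0.91), Rgs12 (0.91) and Pdcd6ip (0.91). Ccn2 encodes a matricellular growth factor and Smad7 an inhibitor of TGF-β signalling. After the litter means were subtracted, r was 0.85, 0.69, 0.69, 0.65 and 0.60. These genes were picked by their r over the same 11 mice, so these values are not separate support. Treatment was not subtracted. For Cish the highest were Glce (0.99), Kdm8 (0.96), Rhbdd3 (0.96), Fbxo7 (0.95) and Nars2 (0.94). In mouse 6, Glce had 1 read, Kdm8 and Rhbdd3 had 0, Nars2 had 34 and Fbxo7 had 191. Without mouse 6, r was 0.64, 0.61, -0.65, 0.26 and 0.30 (n = 10), and without mice 5 and 6 it was 0.82, 0.59, -0.42, 0.13 and 0.40 (n = 9). Such values are the highest of many and share libraries, and they are given as a description.

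The 10 genes did not rise and fall together over mice. Of their 45 pairs, 21 had a Pearson's r above 0, the median was -0.07 and the range -0.79 to 0.54 (n = 11 mice). The lowest was between Socs7 and Pias3, and it was -0.87 after litter means were subtracted. The highest was between Socs1 and Socs5, with 0.54, or 0.52 after subtraction.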

How the data were processed

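Libraries were made by the authors from poly(A)-primed, PCR-amplified cDNA of 11 sorted samples, aligned to GRCm39 with STAR and assigned to genes with featureCounts, per the submitters' processing notes. The deposited counts are whole reads per gene, without normalization or molecular identifiers. The count columns of mice 10 and 11 carry the headers of mice numbered 11 and 12, and samples were taken from the GEO records, both PBS and both of litter 3. The paper's methods mention contralateral eyes as PBS controls for OIR, whereas labels give 1 treatment per mouse. No columns of other samples were present (0 not used).

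Comparisons used edgeR 4.0.16 in R 4.3.3 on all genes: TMM (factors 0.972 to 1.02), filterByExpr with a count minimum of 10, a robust quasi-likelihood fit with litter and treatment as terms, and Benjamini-Hochberg adjustment at 0.05. Scripts were tested on simulated data. Log2 CPM used a prior count of 2. DESeq2 1.42.0, other filters, scalings and sample sets were alternatives. Genes to name were the 10 members, the 5 most similar genes for Socs3 and Cish, genes called in the lists, and set pathway genes. Elob, Eloc, Cul5, Pias2, Pias4 and Ptprc were named after their values were seen. Junb is on both the immediate early and the STAT3 responsive list. Members and lists were chosen with earlier results of these data known. Symbols, positions and exon lengths came from GENCODE vM39. Intervals are at the 95% level, and counting floors of 3 reads cover counting error only. A gene withheld from the text is not reported here.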

Additional observations from a re-analysis of the deposited data

Results flagged for a closer look

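Socs2 in mouse 10, a PBS mouse of litter 3, was at 14.4 CPM, far below the other PBS mice, which lay between 28.2 and 31.9 CPM. Its gap to the nearest of them exceeded Dixon's 95% critical value for 6 samples. Such a gap appears by chance in about 1 of 20 groups, and 20 groups (10 genes in 2 treatments) were examined, of which this was the only one flagged.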

How the results depend on the processing

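Treatment called 0 of the 10 genes under every alternative run, and Socs3, Pias3 and Socs7 kept their direction throughout. The other directions turned at values that never passed the threshold: without a litter term Socs5 (0.0214) and Pias1 (0.0911), without litter 1 Socs4 (0.21), without litter 2 Socs1 (-0.0328), Socs6 (0.31) and Cish (0.0929), and without litter 3 Socs2 (-0.17), Socs5 (0.42) and Pias1 (0.0829). Leaving out single mice gave -0.0213 to 0.54 for Socs1, -0.17 to 0.14 for Socs2, -0.58 to 0.17 for Socs4, -0.49 to 0.42 for Socs5, -0.54 to 0.0634 for Socs6, -0.16 to 0.21 for Pias1, 0.30 to 1.22 for Socs7, -0.44 to -0.15 for Pias3, -0.58 to -0.33 for Socs3 and -0.74 to -0.03 for Cish. Over all genes, OSM called 65 without a filter on low counts and 168 by DESeq2, each of 28940. Litters called 625 of 28940 genes without a filter and 988 of 28940 by DESeq2. They called 109 of 10350 with at least 10 counts in every mouse and 16 of 16643 after thinning to the smallest library. In PBS mice alone 0 of 15388 were called, and 0 to 44 when single mice were left out. Socs3 was the 1 member called by litter without a filter and with 10 counts in every mouse (which Cish did not pass), and by DESeq2 there were 2, with Socs4. Its adjusted p ran from 3.81e-09 (DESeq2) to 0.684 (PBS mice). Its difference between litters 2 and 1 was past the threshold in the main model and was not without robust estimation (-1.69, adjusted p = 0.0527). Litter by treatment called 305 of 28940 genes without a filter (Socs5 among them) and 673 of 28940 by DESeq2, and 0 to 1 when single mice were left out. The longest transcript as length kept 5 of 9 level orders. The causes were not tested. No paired analysis was possible because mouse numbers are not shared between treatments. At the depth of the smallest library, Socs7, Socs4 and Cish were at 0.50, -0.22 and -0.45.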
